A study of Mus musculus with 12 samples.

Results

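The interferon-induced genes described here are 46 genes named in a fixed list of the interferon response, of which 45 had a row in the expression table of 47359 genes. The exception was Ddx58, which had no row under that symbol and was skipped. The members fall into 33 genes of mainly type I character, 8 gamma-type GTPase genes of the Gbp and Irg families, and 4 genes of transcription factors that carry the signal. All 45 passed the filter on low counts and entered every test.

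RNA was measured in transferred TH17 cells sorted from the central nervous system (CNS) of RAG2-/- hosts, which lack T and B cells of host origin but keep innate immune cells, when experimental autoimmune encephalomyelitis was at its peak. There were 1 library of 2D2-IL-17A/F-DKO CXCR6+ cells, 5 of 2D2-WT CXCR6+ cells, 1 of 2D2-IL-17A/F-DKO SLAMF6+ cells and 5 of 2D2-WT SLAMF6+ cells, each from 1000 living cells. 2D2 names a T cell receptor transgene that recognises a myelin protein and that all 4 groups carry per the labels, and DKO cells lack both Il17a and Il17f. The labels give no age, no time after transfer, no number of animals behind a library and no agents used to induce disease, and do not tie replicates to separate animals. The p-values therefore cover the spread among these libraries, which may be technical.

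Type I interferons (the alpha and beta forms) signal through Ifnar1 and Ifnar2 to a complex with Stat2 and Irf9 that binds the interferon-stimulated response element (ISRE) in promoters. Interferon gamma signals through Ifngr1 and Ifngr2 to factors that bind the gamma-activated site (GAS), and induces Irf1 and many Gbp and Irg GTPases. The programmes overlap, and T cells both make interferon gamma and respond to either kind.

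Levels are CPM, the counts of a gene scaled to a common library total and adjusted with TMM factors. A gene was called where edgeR's quasi-likelihood test gave a Benjamini-Hochberg adjusted p under 0.05 over all 21565 genes tested, and errors of log2 fold changes are SE. Il17a stood at 0 CPM in the DKO CXCR6+ library and 0.433 CPM in the DKO SLAMF6+ library (0 and 3 counts), against 190.2 to 441 CPM in WT CXCR6+ and 227 to 464 CPM in WT SLAMF6+. Library totals were 6818658 to 11635037 counts, so that 3 counts equal 0.287 to 0.433 CPM. Mitochondrial genes took 12.9 to 17.6% of counts in WT CXCR6+ and 2.201 to 5.24% in WT SLAMF6+, ribosomal protein genes 9.44 to 10.8% and 18.8 to 20.1%, and the DKO libraries lay between these ranges. The T cell genes Cd3e, Cd3d, Cd3g and Cd4 were expressed in all 12 libraries. Of the sort genes, Cxcr6 RNA ranged over 4.33 to 42.8 CPM in WT CXCR6+ and 11.4 to 19.1 CPM in WT SLAMF6+ and was not called. Slamf6 RNA ranged over 1.69 to 5.01 and 5.89 to 10.96 CPM and was called lower in WT CXCR6+ (log2 -1.35 ± 0.30). The DKO libraries stood apart. Cxcr6 (381 CPM in DKO CXCR6+, 162 CPM in DKO SLAMF6+) and Slamf6 (75.7 and 258 CPM) lay above all WT libraries. Trbv16, the segment of the 2D2 beta chain, made up 9.96 and 6.51% of Trbv counts in DKO CXCR6+ and DKO SLAMF6+ and 99.6 to 99.8% in the WT libraries, and haemoglobin genes took 11.9% of the DKO SLAMF6+ counts. Each DKO result below rests on 1 such library per subset and cannot be given without it, and genotype cannot be told apart from anything else in which that library differs.

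Promoter sequences are shown first because the ISRE and the GAS are the letters through which the type I and gamma signals are known to act. RefSeq (GRCm38.p6) gave a window of 250 bases before to 50 after the start site for 34 of the 46 listed genes. The ISRE was searched as GAAANNGAAA and the GAS as TTCNNNGAA, on both strands, and the matches of both motifs may share bases. An ISRE match lay in the windows of 18 of 34 members (52.9%) and of 3.99% of all 27025 genes with a window. For the GAS these shares were 10 of 34 (29.4%) and 9.55%. By class, the ISRE was matched in 5 of 8 genes of the type I core, in 5 of 6 gamma-type GTPase genes and in 3 of 4 genes of membrane proteins, and the GAS in 2 of 8, 2 of 6 and 2 of 4. The windows below show the match in capitals with up to 20 bases on either side, ending before the start site at the latest, and are read 5′ to 3′ on the gene's strand. The first 3 belong to the type I core and Isg15:
Ifit1: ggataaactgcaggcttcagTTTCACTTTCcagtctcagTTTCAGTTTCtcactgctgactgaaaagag
Rsad2: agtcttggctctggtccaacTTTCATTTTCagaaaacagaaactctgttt
Isg15: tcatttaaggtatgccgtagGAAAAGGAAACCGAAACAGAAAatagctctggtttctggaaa
They lie at chr19:34640765-34640833 on the plus strand, chr12:26456543-26456592 on the minus strand and chr4:156200855-156200916 on the minus strand, with 2, 1 and 3 matches to the ISRE. The next belong to genes that were lower in WT CXCR6+ cells, all with an ISRE match:
Ifitm2: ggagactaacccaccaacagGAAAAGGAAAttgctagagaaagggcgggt
Bst2: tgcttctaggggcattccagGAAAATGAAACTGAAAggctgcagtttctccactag
Gbp2: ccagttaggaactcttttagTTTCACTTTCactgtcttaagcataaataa
Igtp: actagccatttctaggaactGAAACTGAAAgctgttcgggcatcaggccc
Irgm1: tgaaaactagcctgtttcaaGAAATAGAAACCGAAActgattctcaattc
Their positions are chr7:140955978-140956027 (minus), chr8:71537567-71537622 (minus), chr3:142620584-142620633 (plus), chr11:58199502-58199551 (plus) and chr11:48871421-48871470 (minus). Gbp7 and Irf1 show the GAS, at chr3:142530210-142530277 and chr11:53769904-53769952, both on the plus strand:
Gbp7: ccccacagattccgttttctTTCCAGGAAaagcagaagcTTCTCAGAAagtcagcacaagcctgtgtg
Irf1: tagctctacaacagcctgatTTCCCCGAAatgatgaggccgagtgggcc
Gbp7 held 2 GAS matches upstream of an ISRE match, and Irf1 a GAS match without an ISRE match in its window. In Bst2 the GAS match overlaps the ISRE match. A match is a description of the letters and not evidence of binding.

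**Figure D1:**
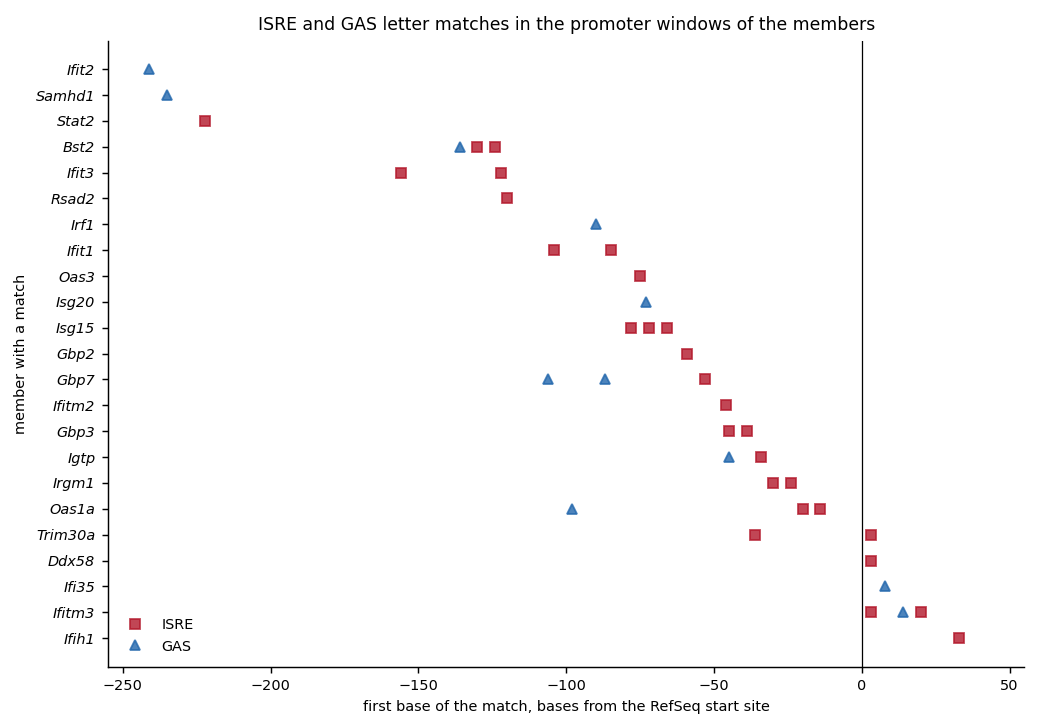
First base of each ISRE match (red squares) and GAS match (blue triangles), in bases from the RefSeq start site on the x axis, for the members with a match on the y axis. ISRE matches were found in 18 members and GAS matches in 10 of the 34 with a window, most of them before the start site.

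CXCR6+ and SLAMF6+ mark a pair of TH17 subsets, and the first comparison asks how they differ among WT cells. Of the 45 members 26 fell in WT CXCR6+ against WT SLAMF6+ cells, 2 rose and 17 were not called, with a median log2 fold change over the members of -0.56. Over all tested genes 17.7% fell and 15.6% rose, and the median was 0.13. Among genes averaging at least 10 CPM, where calls are easier to make, 42.6% of all 7869 genes fell and 25 of 33 members. Of the 33 type I members 17 fell and 1 rose, and of the 8 gamma-type GTPase genes 7 fell. Members are also described below by whether the libraries of the WT subsets overlapped. How often such libraries do not overlap over all tested genes was not counted, so this describes single members only. When offsets corrected for GC content and length, 18 members fell and 3 rose, against 13.2% of all genes that fell. The gene mt-Ts1 was at 0 counts in 1 WT CXCR6+ and 4 WT SLAMF6+ libraries. Both DKO libraries held counts of it (138505 in DKO CXCR6+, 148459 in DKO SLAMF6+). Of the WT SLAMF6+ libraries only replicate 2 did (111496). A term for mt-Ts1 at 0 counts was therefore also tried. It gave 19 lower and 1 higher, against 13.4% of all genes that fell.

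In the type I core 2 of 10 genes fell and none rose. These genes encode antiviral effectors, and all but Oas3 stayed under 10 CPM in every WT library. Oas3, which makes the oligoadenylates that switch on RNase L, stood at 44.1, 38.2, 38.3, 47.2 and 40.2 CPM in WT CXCR6+ and at 56.5, 46.5, 55.3, 56.9 and 56.2 CPM in WT SLAMF6+. It was lower in WT CXCR6+ (log2 -0.38 ± 0.08, adjusted p 0.00467), with 1 WT SLAMF6+ library inside the WT CXCR6+ range. Oasl1, which in mouse holds back translation of Irf7, fell as well (log2 -3.01 ± 1.01, adjusted p 0.0415), with 0 to 3 counts in WT CXCR6+ against 2 to 28 counts in WT SLAMF6+, and its call ended in 9 of 18 alternatives, among them without replicate 1, 2 or 3 of WT CXCR6+ and without replicate 1, 2 or 5 of WT SLAMF6+ (adjusted p 0.00812 to 0.125 over the alternatives). The Oas3 call ended with a filter of 10 CPM in 5 libraries and with the mt-Ts1 term. The other 8 were not called. Ifit1 ranged over 0 to 1.59 CPM in WT CXCR6+ and 0.0977 to 3.22 CPM in WT SLAMF6+, Rsad2 (viperin) over 0 to 0.798 and 0 to 0.592 CPM, and the GTPase gene Mx1 over 1.60 to 5.79 and 1.75 to 4.24 CPM. At these depths a small difference between the subsets was not detectable.

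The genes around ISG15, a ubiquitin-like protein attached to other proteins, gave 2 of 4 lower. Ube2l6, its conjugating enzyme, stood at 20.2, 15.2, 17.1, 20.3 and 19.6 CPM in WT CXCR6+ and 27.2, 28.3, 24.4, 24.6 and 27.7 CPM in WT SLAMF6+. The libraries did not overlap, and the log2 fold change was -0.52 ± 0.10 (adjusted p 0.00154), but with GC and length offsets it was 0.025. Usp18, which removes ISG15 and damps the type I receptor, ranged over 8.02 to 17.2 CPM in WT CXCR6+ and 15.7 to 21.8 CPM in WT SLAMF6+ (log2 -0.56 ± 0.19, adjusted p 0.0426), a call that ended in 15 of 20 alternatives, 7 of them with 1 WT library left out (adjusted p 0.0145 to 0.695 over the alternatives). Isg15 itself stood at 10.1, 13.4, 35.9, 13.6 and 15.3 CPM in WT CXCR6+ and 28.9, 26.8, 21.5, 19.4 and 26.7 CPM in WT SLAMF6+, with the single highest value in a WT CXCR6+ library, and neither it nor the ligase gene Herc6 was called.

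Of the sensors of foreign or misplaced nucleic acid, 2 of 3 fell. Zbp1, which detects Z-form nucleic acid and can start necroptosis, stood at 23.5, 23.8, 24.1, 21.5 and 21.2 CPM in WT CXCR6+ and 42.2, 46.5, 42.4, 38.3 and 56.2 CPM in WT SLAMF6+. Every WT CXCR6+ library was below every WT SLAMF6+ library (log2 -0.99 ± 0.10, adjusted p 3.1e-05). Dhx58 (LGP2), a regulator of RNA sensing, stood at 28.8, 23.8, 15.4, 24.7 and 19.6 CPM in WT CXCR6+ and 36.4, 38.4, 33.3, 30.8 and 34.9 CPM in WT SLAMF6+ (log2 -0.63 ± 0.15, adjusted p 0.00787). These groups did not overlap either, and the Dhx58 call ended with the mt-Ts1 term. Ifih1 (MDA5), a receptor for long double-stranded RNA, ranged over 14.6 to 24.4 CPM in WT CXCR6+ and 17.9 to 23.3 CPM in WT SLAMF6+ and was not called.

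Of the 6 genes of membrane proteins 5 fell in WT CXCR6+ and none rose, with a median log2 fold change of -0.99. The Ifitm genes lie together on chromosome 7, and their proteins stop viruses from fusing with the cell membrane. Ifitm2 stood at 241, 224, 227, 221 and 252 CPM in WT CXCR6+ and 603, 501, 567, 549 and 611 CPM in WT SLAMF6+ (log2 -1.28 ± 0.07, adjusted p 5.25e-07). Ifitm1 stood at 36.6, 26.5, 18.9, 17.4 and 11.7 CPM in WT CXCR6+ and 116, 34.2, 108, 86.6 and 74.1 CPM in WT SLAMF6+ (log2 -1.92 ± 0.36, adjusted p 0.00177). Ifitm3 stood at 153, 105, 56.3, 129 and 111 CPM in WT CXCR6+ and 282, 188, 310.5, 226 and 279 CPM in WT SLAMF6+ (log2 -1.21 ± 0.23, adjusted p 0.00211). Ifitm2 and Ifitm3 did not overlap between the subsets, while for Ifitm1 a WT SLAMF6+ library reached into the WT CXCR6+ range. Bst2 (tetherin), which holds budding virus at the cell surface, stood at 258, 250.02, 259.6, 293 and 255 CPM in WT CXCR6+ and 392, 340.4, 393, 393 and 399 CPM in WT SLAMF6+ (log2 -0.54 ± 0.06, adjusted p 7.04e-05). Ly6e, a surface protein anchored in the membrane by lipid, stood at 459, 475, 450.1, 520.0 and 433 CPM in WT CXCR6+ and 817, 694, 828, 869.5 and 787 CPM in WT SLAMF6+ (log2 -0.77 ± 0.07, adjusted p 1.53e-05). Neither gene overlapped between the subsets. Rtp4, a receptor chaperone, ranged over 0 to 2.23 CPM in WT CXCR6+, with 3 libraries at 0 counts, and 0.280 to 1.17 CPM in WT SLAMF6+, and was not called. The calls of Bst2 and Ifitm3 ended with the GC and length offsets.

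Among the 10 other type I members 6 fell and 1 rose. Ifi27l2a, a small membrane protein gene, stood at 1187, 986, 1046, 1199 and 925 CPM in WT CXCR6+ and 2516, 2399, 2485, 2546 and 2926 CPM in WT SLAMF6+, without overlap (log2 -1.27 ± 0.09, adjusted p 2.25e-06). Its neighbour on chromosome 12, Ifi27, stood at 145, 202, 191, 204 and 183 CPM in WT CXCR6+ and 296, 291, 314, 298 and 334 CPM in WT SLAMF6+ (log2 -0.73 ± 0.09, adjusted p 1.1e-04), and that call ended with the GC and length offsets. Isg20, an exonuclease gene, stood at 2.77, 2.30, 2.51, 2.58 and 1.56 CPM in WT CXCR6+ and 8.31, 3.36, 8.20, 6.89 and 5.63 CPM in WT SLAMF6+ (log2 -1.47 ± 0.25, adjusted p 8.6e-04). All 3 genes were lower in every WT CXCR6+ library than in any WT SLAMF6+ library. Epsti1 stood at 11.7, 8.65, 11.7, 15.9 and 8.13 CPM in WT CXCR6+ and 20.5, 21.02, 21.1, 24.1 and 22.8 CPM in WT SLAMF6+ (log2 -0.96 ± 0.16, adjusted p 9.27e-04). Samhd1, which breaks down the nucleotides that viruses need for DNA synthesis, stood at 169.6, 155, 144, 188 and 173 CPM in WT CXCR6+ and 241, 249, 226, 246 and 262 CPM in WT SLAMF6+ (log2 -0.56 ± 0.08, adjusted p 1.87e-04). Xaf1, which binds an inhibitor of apoptosis, stood at 22.6, 24.3, 22.8, 20.2 and 21.4 CPM in WT CXCR6+ and 31.0, 35.7, 32.3, 49.9 and 37.2 CPM in WT SLAMF6+ (log2 -0.74 ± 0.13, adjusted p 0.00101). These 3 did not overlap either. Parp14, an ADP-ribosyltransferase gene, went the other way, with 20.1, 15.99, 17.9, 17.7 and 15.9 CPM in WT CXCR6+ and 13.3, 14.2, 13.0, 11.5 and 9.28 CPM in WT SLAMF6+ (log2 0.52 ± 0.13, adjusted p 0.00940), and its call also ended with those offsets. Ifi35 (93.8 to 115 against 87.0 to 99.5 CPM), Trim30a (39.9 to 53.3 against 38.1 to 45.2 CPM) and Ifi44 (0.241 to 1.99 against 0.0955 to 1.38 CPM) were not called.

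The gamma-type GTPases, which attack the vacuoles of intracellular microbes, were lower in WT CXCR6+ in 7 of 8 cases, with a median log2 fold change of -0.83. Gbp2 stood at 87.4, 72.9, 48.9, 69.1 and 83.5 CPM in WT CXCR6+ and 210.2, 221, 190.4, 199.9 and 251 CPM in WT SLAMF6+ (log2 -1.57 ± 0.15, adjusted p 1.36e-05). Ifi47 stood at 50.7, 64.8, 47.1, 56.8 and 50.9 CPM in WT CXCR6+ and 98.6, 96.4, 95.1, 95.7 and 107 CPM in WT SLAMF6+ (log2 -0.86 ± 0.09, adjusted p 2.04e-05). Irgm1 stood at 54.7, 49.5, 47.0, 46.0 and 47.5 CPM in WT CXCR6+ and 77.6, 65.4, 76.3, 82.7 and 87.3 CPM in WT SLAMF6+ (log2 -0.67 ± 0.08, adjusted p 1.05e-04). In each of these the subsets were fully apart. Gbp6 stood at 26.8, 21.7, 29.9, 22.3 and 34.1 CPM in WT CXCR6+ and 46.4, 45.5, 44.9, 44.7 and 53.1 CPM in WT SLAMF6+ (log2 -0.80 ± 0.13, adjusted p 5.49e-04). Gbp7 stood at 14.2, 13.3, 5.70, 14.4 and 8.46 CPM in WT CXCR6+ and 22.5, 19.2, 18.2, 17.2 and 17.4 CPM in WT SLAMF6+ (log2 -0.75 ± 0.23, adjusted p 0.0284). The subsets were apart for both, although the Gbp7 call ended without WT CXCR6+ replicate 5, without WT SLAMF6+ replicate 1 and with the mt-Ts1 term (adjusted p 0.00343 to 0.141 over the alternatives). Gbp3 stood at 9.15, 8.32, 13.3, 7.65 and 10.1 CPM in WT CXCR6+ and 19.9, 13.3, 13.8, 16.01 and 24.6 CPM in WT SLAMF6+ (log2 -0.85 ± 0.21, adjusted p 0.00933). Igtp stood at 175, 189.9, 139.7, 168 and 153 CPM in WT CXCR6+ and 214, 178, 216, 216 and 234 CPM in WT SLAMF6+ (log2 -0.36 ± 0.09, adjusted p 0.0134). Both overlapped between the subsets, and both calls ended with the GC and length offsets and with the mt-Ts1 term. Iigp1 ranged over 1.00 to 3.94 CPM in WT CXCR6+ and 3.54 to 5.63 CPM in WT SLAMF6+ and was not called (log2 -0.88 ± 0.35, adjusted p 0.0754).

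Of the 4 transcription factor genes 2 fell and 1 rose. Irf1, the factor induced through the GAS, stood at 48.2, 57.3, 49.9, 50.1 and 51.9 CPM in WT CXCR6+ and 73.4, 74.1, 66.1, 75.1 and 78.0 CPM in WT SLAMF6+, without overlap (log2 -0.51 ± 0.07, adjusted p 1.36e-04). Irf9, the DNA-binding part of the type I complex, ranged over 49.1 to 71.3 CPM in WT CXCR6+ and 66.6 to 74.2 CPM in WT SLAMF6+ (log2 -0.28 ± 0.09, adjusted p 0.0377). Its partner Stat2 was slightly higher in WT CXCR6+, at 61.4, 76.1, 69.7, 74.0 and 80.8 CPM, against 67.3, 63.6, 60.7, 59.3 and 59.1 CPM in WT SLAMF6+ (log2 0.22 ± 0.08, adjusted p 0.0494). Both groups overlapped for these genes, and their calls ended in 16 (Irf9) and 13 (Stat2) of 20 alternatives, each with 8 of the 10 single WT libraries left out (adjusted p 0.00395 to 0.771 and 5.38e-04 to 0.426 over the alternatives). Irf7, the factor that amplifies type I interferon production, ranged over 8.68 to 16.5 CPM in WT CXCR6+ and 11.8 to 21.3 CPM in WT SLAMF6+ and was not called.

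**Figure D2:**
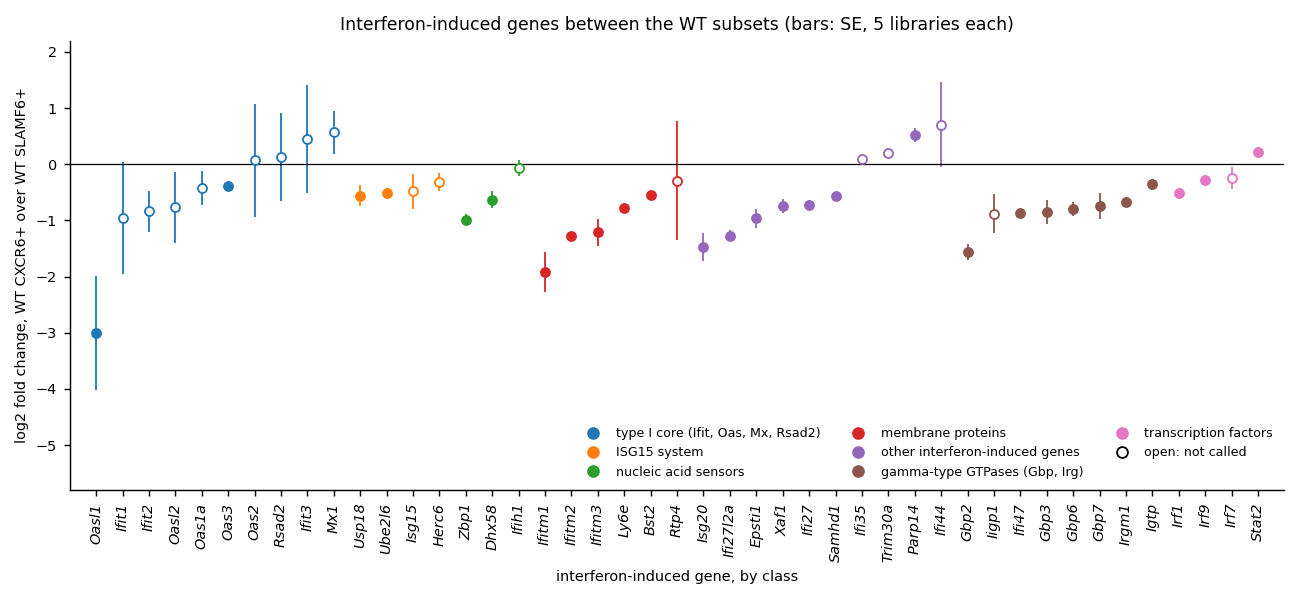
Log2 fold change of each of the 45 members in WT CXCR6+ over WT SLAMF6+ libraries (y axis, bars are SE, n = 5 each), ordered by class on the x axis, with filled points for called genes. Of the members 26 lie below 0 and were called, and Parp14 and Stat2 lie above 0 and were called.

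The promoter matches can be set beside these calls as counts. Of the 17 members with a row and an ISRE match 9 fell in WT CXCR6+, and of 16 with a window but no match 10 fell. For the GAS these counts were 7 of 10 and 12 of 23.

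Some genes that mark other cells moved with the same contrast. Of 10 genes of dendritic cells and MHC class II, 4 fell in WT CXCR6+, and their summed level was 91.7 to 146.7 CPM against 271.7 to 335.3 CPM in WT SLAMF6+. Xcr1 and Clec9a, which define a dendritic cell subset, were at 0 counts in all 5 WT CXCR6+ libraries, as Clec9a was in all 5 WT SLAMF6+ libraries. Of 12 monocyte, macrophage and microglia genes tested 2 fell and 1 rose. Their sum was lower in WT CXCR6+, at 26.3 to 52.1 CPM against 70.03 to 92.7 CPM in WT SLAMF6+. As a set they were not, since only 4 of the 12 had a negative log2 fold change and the median was 0.90. Of 7 plasmacytoid dendritic cell genes 2 fell, among them the member Bst2, and the median log2 fold change was 0.21. They summed to 266.7 to 303.1 CPM in WT CXCR6+ and 354.5 to 412.5 CPM in WT SLAMF6+. Most of these sums was Bst2 itself (250.02 to 293 and 340.4 to 399 CPM). Of 6 neural and glial genes tested 3 fell and 1 rose, and the 12 genes listed summed to 111.9 to 143.3 CPM in WT CXCR6+ and 252.9 to 291.7 CPM in WT SLAMF6+. The part of these cells, and of the mitochondrial and ribosomal protein shares given above, in the differences between the subsets was not tested. In bulk samples such as these, fewer cells of a type and less RNA per cell cannot be told apart.

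Of the genes upstream of the members, Ifng, the gamma ligand, stood at 2.29, 27.6, 13.0, 3.48 and 0.334 CPM in WT CXCR6+ and 15.4, 0.841, 4.79, 10.1 and 50.6 CPM in WT SLAMF6+ (log2 -0.81 ± 1.07, adjusted p 0.594). The groups overlapped and the gene was not called. Of the 12 other ligand genes only Ifne had enough counts to be tested, and it was not called. Of 5 receptor genes tested 4 fell, namely Ifnar2 (24.04 ± 3.33 against 50.2 ± 2.41 CPM, mean ± SD, n = 5 each), Ifngr1 (42.6 ± 9.54 against 69.3 ± 1.77 CPM), Ifngr2 (20.7 ± 3.84 against 39.4 ± 2.59 CPM) and Il10rb, while Ifnar1 was not called (log2 0.0035 ± 0.08). Of 10 signalling genes 2 fell and 3 rose. The kinase genes Jak2 (log2 0.95 ± 0.08) and Ikbke (log2 0.80 ± 0.07) rose. Negative regulators were mixed, 4 higher and 3 lower of 12, with Sh2b3 at log2 1.00 ± 0.13 and the phosphatase genes Ptpn1 and Ptpn2 at -0.81 ± 0.09 and -0.69 ± 0.09. Of 5 innate sensing genes tested 2 fell, the adaptor genes Myd88 (log2 -0.57 ± 0.11) and Mavs (log2 -0.48 ± 0.16), while Aim2 was not called. Of 65 other interferon-induced genes tested 20 fell and 6 rose, with a median log2 fold change of -0.22, among them the proteasome subunit gene Psmb8 (log2 -0.98 ± 0.07), Shisa5 (-0.72 ± 0.06) and Dtx3l (-1.02 ± 0.10).

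**Figure D3:**
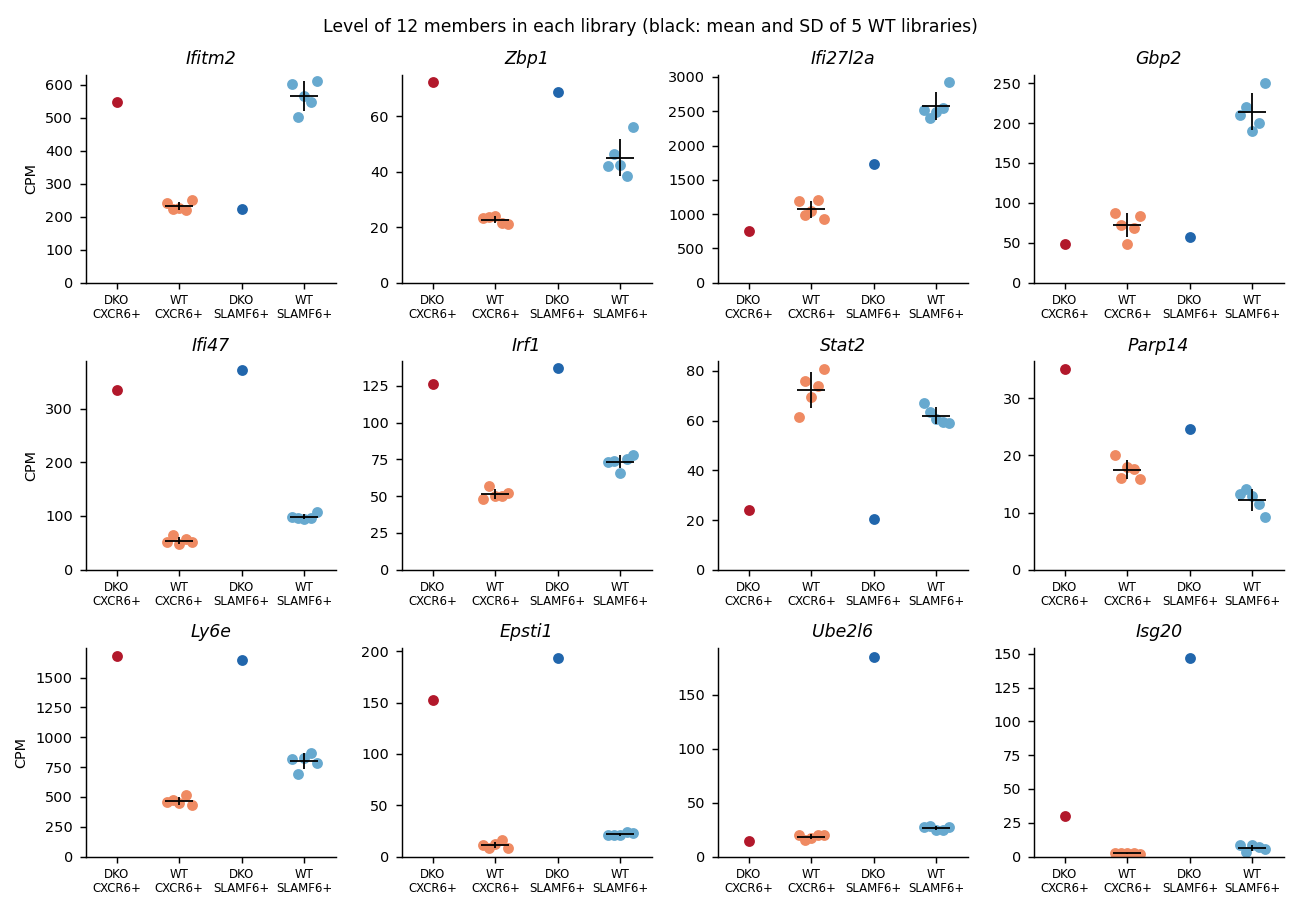
CPM (y axis, from 0) of 12 members in each library, by group on the x axis, with the mean and SD of the 5 WT libraries in black and single points for the DKO libraries. Ifitm2, Ifi27l2a and Gbp2 show WT CXCR6+ below WT SLAMF6+, and Ly6e, Epsti1 and Ifi47 show both DKO libraries above all WT libraries.

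The second question was how loss of Il17a and Il17f goes with these genes, within CXCR6+ cells. In the DKO CXCR6+ library 23 members were higher and 4 lower than in WT CXCR6+, and 18 were not called, with a median log2 fold change of 0.81. Of all tested genes 12.8% were higher and 15.9% lower, with a median of -0.22. Of the type I members 16 of 33 were higher and 3 lower, and of the gamma-type GTPase genes 5 of 8 were higher and none lower. Transcription factor genes gave 2 higher and 1 lower of 4. With a filter of 10 CPM in 5 libraries 14 of 32 members tested were higher and 4 lower, and the median was 0.27. Under that filter 30.5% of all genes tested were lower, 4500 were called in either direction, and the all-gene median was -0.08. The share of all genes called higher was not counted separately there, so the 14 higher members have no matching share beside them.

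Several type I core genes that were at or under a few CPM in WT stood higher in the DKO CXCR6+ library. Ifit1 was at 10.7 CPM, against 0.482, 0.767, 0.114, 1.59 and 0 CPM in WT CXCR6+ (log2 4.14 ± 1.35, adjusted p 0.0404). Ifit3 was at 7.38 CPM, against 0, 0, 0.912, 0.398 and 0.111 CPM in WT CXCR6+ (log2 4.63 ± 1.21, adjusted p 0.0142). Ifit2, Oas2, Oasl1 and Oasl2 were called higher too, with 4.85, 6.58, 4.04 and 9.34 CPM in DKO CXCR6+ and at most 1.31 CPM in any WT CXCR6+ library. These folds rest on WT counts near 0. The Ifit1 call ended in 7 of 17 alternatives, among them without replicate 1, 2 or 3 of WT CXCR6+ and without replicate 1 or 5 of WT SLAMF6+ (adjusted p 0.0223 to 0.0712 over the alternatives). The Oas2 call ended in 3 of 17, among them without replicate 4 or 5 of WT CXCR6+ (0.00172 to 0.0991). Oas3 (the log2 fold change was 0.27 ± 0.14), Oas1a, Mx1 and Rsad2 were not called.

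The members with the smallest adjusted p in this comparison came from several classes. Ifi47 stood at 335 CPM in DKO CXCR6+, above the 47.1 to 64.8 CPM of WT CXCR6+ (log2 2.63 ± 0.12, adjusted p 1.88e-07). Ly6e stood at 1684 CPM in DKO CXCR6+, above the 433 to 520.0 CPM of WT CXCR6+ (log2 1.85 ± 0.11, adjusted p 8.52e-07). Epsti1 stood at 152 CPM in DKO CXCR6+, above the 8.13 to 15.9 CPM of WT CXCR6+ (log2 3.76 ± 0.23, adjusted p 8.6e-07). Between the WT subsets all 3 had fallen in CXCR6+, and in DKO CXCR6+ they exceeded the libraries of both WT subsets. Irf1 stood at 126 CPM in DKO CXCR6+ (log2 1.296 ± 0.10, adjusted p 5.01e-06) and Isg20 at 30.1 CPM (log2 3.68 ± 0.33, adjusted p 1.26e-05), again above both WT subsets. Ifitm2, at 548 CPM in DKO CXCR6+ (log2 1.23 ± 0.11, adjusted p 8.15e-06), lay above WT CXCR6+ but inside the WT SLAMF6+ range. Zbp1, Irf7, Gbp7, Ifitm1, Irgm1, Samhd1, Iigp1, Gbp6, Parp14, Rtp4 and Xaf1 were higher as well, by log2 fold changes between 0.68 (Samhd1) and 5.84 (Rtp4).

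The 4 lower members were Stat2, Bst2, Ifih1 and Ifi27l2a. Stat2 stood at 24.1 CPM in DKO CXCR6+, below the 61.4 to 80.8 CPM of WT CXCR6+ (log2 -1.59 ± 0.16, adjusted p 2.23e-05). Bst2 stood at 145 CPM in DKO CXCR6+, below the 250.02 to 293 CPM of WT CXCR6+ (log2 -0.86 ± 0.12). Ifih1 was at 8.19 CPM in DKO CXCR6+ (log2 -1.29 ± 0.28) and Ifi27l2a at 756 CPM (log2 -0.50 ± 0.16), both below all WT CXCR6+ libraries. The Ifi27l2a call ended in 7 of 18 alternatives, among them without replicate 1 or 4 of WT CXCR6+ and without replicate 1, 3 or 4 of WT SLAMF6+ (adjusted p 0.00406 to 0.0866). The ISG15 genes were not called: Isg15, Ube2l6, Herc6 and Usp18 stood at 21.9, 14.3, 14.0 and 16.5 CPM in DKO CXCR6+, with Ube2l6 just below the WT CXCR6+ range and the others within it.

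The same question within SLAMF6+ cells gave 18 members higher, 8 lower and 19 not called in the DKO SLAMF6+ library, with a median log2 fold change of 0.13. Of all tested genes 13.5% were higher and 17.5% lower, with a median of -0.05. Of the type I members 13 of 33 were higher and 6 lower, and of the gamma-type GTPase genes 3 of 8 were higher and 1 lower. Among the WT SLAMF6+ libraries only replicate 2 held mt-Ts1 counts, as the DKO SLAMF6+ library did. The mt-Ts1 term gave 12 higher and 7 lower, where 15.1% of all tested genes were lower. Library sizes without the mitochondrial, ribosomal protein, haemoglobin and receptor genes gave 18 higher and 11 lower, where 18.1% of all were lower. With GC and length offsets 21 were higher and 7 lower, and the median was 0.46. There 13.6% of all genes were lower, and the all-gene median was 0.06. Under these 3 settings 5211, 6707 and 7146 genes were called in either direction. The share of all genes called higher was not counted separately under them.

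Ube2l6 stood at 184 CPM in DKO SLAMF6+, against 27.2, 28.3, 24.4, 24.6 and 27.7 CPM in WT SLAMF6+ (log2 2.80 ± 0.14, adjusted p 2.52e-07). Rsad2 stood at 50.1 CPM in DKO SLAMF6+, against 0, 0.280, 0.586, 0.582 and 0.592 CPM in WT SLAMF6+ (log2 6.88 ± 0.97, adjusted p 3.06e-04). Isg20 stood at 147 CPM in DKO SLAMF6+, above the 3.36 to 8.31 CPM of WT SLAMF6+ (log2 4.49 ± 0.32, adjusted p 2.52e-06). For these 3 genes the DKO SLAMF6+ library was the highest of all 12. Epsti1 was at 194 CPM in DKO SLAMF6+ (log2 3.14 ± 0.23, adjusted p 2.92e-06) and Ifi47 at 372 CPM (log2 1.92 ± 0.13, adjusted p 1.77e-06), each above every WT library. Ly6e, Irf1, Irf7, Rtp4, Iigp1, Parp14, Zbp1, Gbp7, Ifit2, Ifit3, Oas1a, Oas2 and Oasl2 were higher as well, by log2 fold changes between 0.61 (Zbp1) and 5.65 (Rtp4). Calls with single WT libraries left out ended for Oas2 (each of 5 WT SLAMF6+ libraries, adjusted p 0.00419 to 0.419 over all alternatives), Gbp7 (WT CXCR6+ replicate 2 and WT SLAMF6+ replicates 2 to 5, 0.00310 to 0.0759), Ifit2 (WT SLAMF6+ replicates 1, 3, 4 and 5, 0.00748 to 0.135), Oasl2 (WT SLAMF6+ replicates 2 to 4, 0.00499 to 0.340) and Oas1a (WT SLAMF6+ replicates 1 and 4, 0.00525 to 0.0508). The mt-Ts1 term ended the calls of Oas2, Gbp7, Ifit2 and Oasl2 too, and those of Ifit3 (7.93e-04 to 0.206), Rtp4 (4.37e-04 to 0.199) and Zbp1 (0.00119 to 0.0629).

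Lower in the DKO SLAMF6+ library were Ifitm2, Stat2, Bst2, Gbp2, Ifih1, Ifi27, Ifitm3 and Ifi27l2a. Ifitm2 was at 224 CPM in DKO SLAMF6+, below the 501 to 611 CPM of WT SLAMF6+ (log2 -1.34 ± 0.13, adjusted p 1.89e-05). Stat2 was at 20.4 CPM in DKO SLAMF6+, below the 59.1 to 67.3 CPM of WT SLAMF6+ (log2 -1.61 ± 0.16, adjusted p 2.28e-05). Gbp2 was at 57.9 CPM in DKO SLAMF6+, below the 190.4 to 251 CPM of WT SLAMF6+ (log2 -1.89 ± 0.29, adjusted p 4.92e-04). Bst2 (163 CPM in DKO SLAMF6+, log2 -1.24 ± 0.12) and Ifitm3 (67.5 CPM, log2 -1.93 ± 0.47) were below all WT SLAMF6+ libraries as well. The Ifi27 call ended with the GC and length offsets (adjusted p 2.79e-05 to 0.130 over the alternatives) and the Ifi27l2a call with the mt-Ts1 term (0.00270 to 0.0825).

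In both subsets 15 of the 45 members were called higher in the DKO library, against 6.63% of all tested genes. As a share of each list these are 15 of 23 members called higher in CXCR6+ and 15 of 18 in SLAMF6+, where over all tested genes they were 1429 of 2767 and 1429 of 2913. They were Ifit2, Ifit3, Oas2, Oasl2, Zbp1, Ly6e, Rtp4, Isg20, Epsti1, Parp14, Gbp7, Iigp1, Ifi47, Irf1 and Irf7. With the mt-Ts1 term 9 members were higher in both, namely Ifitm1, Ly6e, Isg20, Epsti1, Parp14, Iigp1, Ifi47, Irf1 and Irf7, and 1155 of all tested genes. A filter of 10 CPM in 5 libraries gave 9 of 32 members tested and 1228 of all genes. Without a filter on low counts 10 of 45 members and 1138 of all genes were higher in both. Stat2, Bst2, Ifih1 and Ifi27l2a were lower in both, 4 of 45 members against 10.6% of all tested genes, which is no excess. They are 4 of 4 members called lower in CXCR6+ and 4 of 8 in SLAMF6+, against 2279 of 3432 and 2279 of 3784 over all tested genes. Ifitm2 was called in opposite directions. The 2 comparisons use different WT libraries, though 1 estimate of the spread. Both DKO libraries carry the same number in their labels and the low Trbv16 share given above. Whether they come from 1 source is not stated, so the shared calls cannot be read as 2 independent results.

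**Figure D4:**
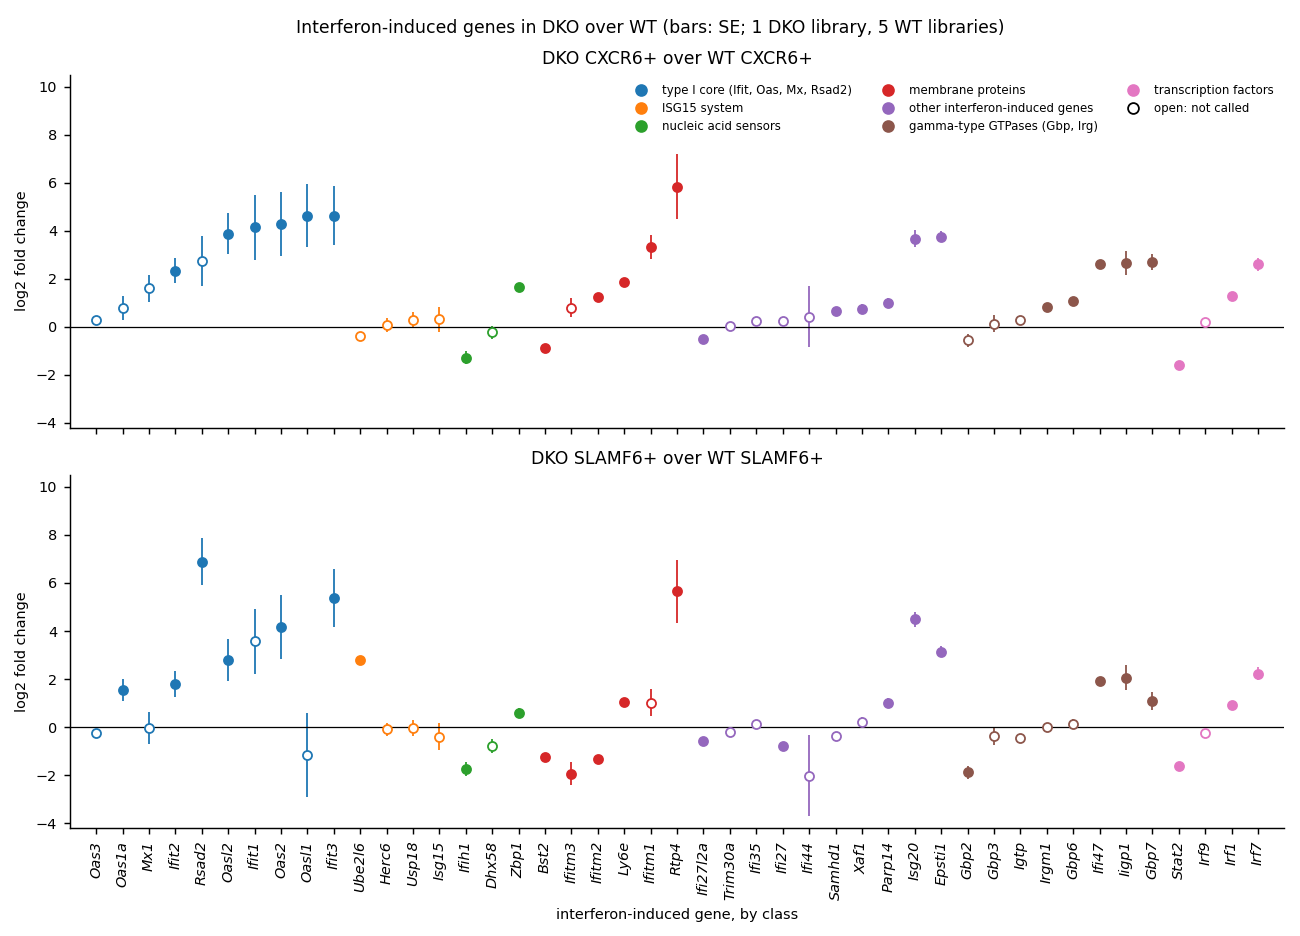
Log2 fold change (y axis, bars are SE) of each member in DKO CXCR6+ over WT CXCR6+ (upper panel) and in DKO SLAMF6+ over WT SLAMF6+ (lower panel), with 1 DKO and 5 WT libraries each and filled points for called genes. Called genes number 23 above and 4 below 0 in the upper panel and 18 above and 8 below 0 in the lower panel.

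Markers of the sorted cells and of other cell types differed in the DKO libraries, and their part in these results was not tested. The 12 CD4 T cell genes summed to 7718 CPM in DKO CXCR6+ and to 8684 in DKO SLAMF6+, against 22693 to 39894 CPM in WT. In that list the receptor genes Trac and Trbc2 were lower in both DKO libraries, and 5 genes were higher in DKO CXCR6+ and 6 in DKO SLAMF6+. The 10 TH17 genes, which include the deleted Il17a and Il17f, summed to 284.6 CPM in DKO CXCR6+ and to 253.7 in DKO SLAMF6+, against 530.1 to 909.9 CPM in WT. Of 9 tested 2 were higher and 4 lower in either DKO library. Of 8 neutrophil genes 4 were higher in DKO CXCR6+ and 3 in DKO SLAMF6+, summing to 1036 and 82.4 CPM, against 0 to 3.01 CPM in the WT libraries, with S100a8 and S100a9 at 0 counts in all WT libraries. All 7 erythroid genes were higher in DKO SLAMF6+, summing to 143478 CPM in that library, 2.65 CPM in DKO CXCR6+ and 0.970 to 3.58 CPM in WT. Of 10 dendritic cell and MHC class II genes 5 and 7 were higher. They summed to 280.5 CPM in DKO CXCR6+, above the 91.7 to 146.7 CPM of WT CXCR6+. In DKO SLAMF6+ the sum was 1575 CPM, above the 271.7 to 335.3 CPM of WT SLAMF6+. Of 12 monocyte, macrophage and microglia genes tested 2 were higher and 2 lower in DKO CXCR6+, and 6 higher and 2 lower in DKO SLAMF6+. The 14 listed summed to 67.4 CPM in DKO CXCR6+, above the 26.3 to 52.1 CPM of WT CXCR6+. In DKO SLAMF6+ the sum was 93.9 CPM, against 70.03 to 92.7 CPM in WT SLAMF6+. Of 7 genes of plasmacytoid dendritic cells, which make type I interferon, 1 was higher and 1 lower in DKO CXCR6+, and 3 higher and 1 lower in DKO SLAMF6+. They summed to 153.7 CPM in DKO CXCR6+ and to 219.6 in DKO SLAMF6+, against 266.7 to 412.5 CPM in the WT libraries. Most of each sum was the member Bst2, which is in this list (145 and 163 CPM, against 250.02 to 399 CPM in WT). The sums therefore largely repeat that member, and the median log2 fold changes over the list were -0.74 and 2.49. In that list Siglech stood at 24.3 CPM in DKO SLAMF6+ and 0 CPM in DKO CXCR6+, against at most 0.986 CPM in WT. Of 8 CD8 T and NK cell genes 3 and 6 were higher, summing to 111.7 CPM in DKO CXCR6+, 235.8 CPM in DKO SLAMF6+ and 8.55 to 36.4 CPM in WT.

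Upstream genes differed between the genotypes too. Ifngr1 stood at 337 CPM in DKO CXCR6+, against 32.0 to 50.3 CPM in WT CXCR6+ (log2 2.98 ± 0.20), and at 216 CPM in DKO SLAMF6+, against 66.998 to 71.9 CPM in WT SLAMF6+ (log2 1.64 ± 0.21). Its partner Ifngr2 was lower, at 3.69 CPM in DKO CXCR6+ (log2 -2.48 ± 0.26) and at 11.1 CPM in DKO SLAMF6+ (log2 -1.82 ± 0.24). Ifnar1 was higher in both subsets (log2 0.49 ± 0.14 and 0.66 ± 0.14). Ifng, at 4.04 CPM in DKO CXCR6+ and at 8.38 in DKO SLAMF6+, lay within both WT ranges and was not called. Of 65 other interferon-induced genes tested 37 were higher and 7 lower in DKO CXCR6+, and 33 higher and 6 lower in DKO SLAMF6+.

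Whether the genotype difference itself depended on the subset was tested as an interaction. It was called for 9 members, against 10.3% of all tested genes. The difference of DKO from WT was more positive in CXCR6+ for Ifitm2 (log2 2.57 ± 0.17, adjusted p 1.53e-04), Ifitm3 (2.73 ± 0.59, 0.0153), Samhd1 (1.04 ± 0.19, 0.00691), Ifi27 (1.04 ± 0.22, 0.0151), Ly6e (0.80 ± 0.18, 0.0175), Zbp1 (1.06 ± 0.25, 0.0221), Irgm1 (0.81 ± 0.20, 0.0291) and Gbp2 (1.33 ± 0.36, 0.0393). It was more negative in CXCR6+ for Ube2l6 (-3.17 ± 0.24, 2.97e-04). No type I core gene was among them, although Rsad2 was called only in SLAMF6+ and Oasl1 only in CXCR6+ (interaction adjusted p 0.189 and 0.195). The count was 14 with DESeq2's Wald test and 5 with GC and length offsets, which ended the calls of Zbp1, Ifi27, Irgm1 and Gbp2. Over all tested genes 3259 and 1745 were called under these settings, against 2221 in the first fit. Without single WT libraries the Gbp2 call ended for WT CXCR6+ replicates 2 and 4 and WT SLAMF6+ replicates 1, 2, 4 and 5 (adjusted p 0.00298 to 0.0764 over the alternatives), and the Irgm1 call for WT SLAMF6+ replicate 4 (0.00360 to 0.155). Over their alternatives the adjusted p was 0.00212 to 0.104 for Zbp1, 2.66e-04 to 0.302 for Ifi27 and 9.76e-06 to 0.0776 for Ifitm3.

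The DKO CXCR6+ and DKO SLAMF6+ libraries can be set side by side only as values. For Ifitm2 the CPM ratio of DKO CXCR6+ over DKO SLAMF6+ was 2.45 (95% exact interval 2.31 to 2.60, counting error only), whereas WT CXCR6+ was below WT SLAMF6+. The ratio was 0.0776 (0.0640 to 0.0934) for Ube2l6, 0.205 (0.178 to 0.235) for Isg20 and 0.0621 (0.0404 to 0.0920) for Rsad2. Mx1, at 13.8 CPM in DKO CXCR6+ and at 3.03 in DKO SLAMF6+, had a ratio of 4.56 (2.85 to 7.64). Among the gamma-type genes it ran from 0.781 (0.580 to 1.05) for Gbp3 to 1.80 (1.56 to 2.08) for Gbp7. Without replicates these ratios do not say how far such cells differ.

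The members also differed in how evenly they were expressed within a WT subset. Of the 32 averaging at least 10 CPM over the 10 WT libraries, the coefficient of variation ran from 5.68% (Ifitm2) to 58.8% (Isg15) in WT CXCR6+, with a median of 12.1%, and from 4.80% (Ifi47) to 38.6% (Ifitm1) in WT SLAMF6+, with a median of 8.23%. The Ifit, Oas, Oasl, Gbp and Ifitm genes have near-identical relatives, among which the authors' counting could split reads, so single members of these families are less certain than the family.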

How the data were processed

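The authors deposited a table of expected counts per gene symbol, which are whole numbers in the file and were used as such. STAR 2.7.7a, RSEM 1.3.3 and mm10 are named in the submitters' processing notes. Gene annotation and the treatment of multiply matching reads were not given in the sources used here. Per the labels' protocols, SMART-Seq2 cDNA and Nextera XT libraries were sequenced. Such libraries do not mark strand, so overlapping genes cannot be told apart. Library totals ran from 6818658 to 11635037, and no WT library stood as a copy of another in its subset. The DKO libraries and pairs across groups were not compared in this way.

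The 12 libraries, grouped by their labels, entered a single fit in edgeR 4.0.16 (R 4.3.3) with TMM scaling, filterByExpr, quasi-likelihood tests and p-values adjusted by Benjamini-Hochberg (8 residual degrees of freedom). Its contrasts set the subsets against each other within WT, set DKO against WT within either subset, and tested the interaction. A DKO group of 1 library is assumed to vary like WT, and the spread comes from WT. Steps were tested on simulated counts. Positions are from GENCODE M21 (GRCm38), matched to 87.4% of rows, and promoters from RefSeq (GRCm38.p6). Intervals and floors of 3 counts cover counting error only.

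Members and lists were chosen with earlier results of these data known. By rule, values are given for the 24 called members with the smallest adjusted p in WT, the member with the highest mean CPM of each class, the 6 smallest adjusted p per DKO comparison among members outside the WT range, up to 3 genes by adjusted p of each other list, Ifng and the receptor genes, others by range. One gene that the rule names is not reported here. The markers S100a8, S100a9, Siglech, Xcr1, Clec9a, Trac and Trbc2 were chosen after their values were seen. Alternatives were DESeq2 1.42.0 size factors and its Wald test, no filter, a filter of 10 CPM in 5 libraries, other library sizes, GC and length offsets (splines with 5 degrees of freedom, 90.5% of tested genes with both values), a replicate block, only the groups compared and each WT library left out. A term for mt-Ts1 at 0 counts was added after seeing the data.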

Additional observations from a re-analysis of the deposited data

Results flagged for a closer look

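Of 90 groups of 5 WT libraries, 13 held a library far from the other 4. The cut-off flags about 1 in 20 groups of normally distributed values, which genes near 0 counts need not follow. The flagged values of Ifit3, Oas2 and Rtp4 were 5, 12 and 20 counts. In WT SLAMF6+ replicate 2 the flagged members were Ifit2 at 3.08 CPM (others 1.24 to 1.48), Oasl1 at 3.92 CPM (others 0.195 to 1.18), Oas3 at 46.5 CPM (others 55.3 to 56.9) and Bst2 at 340.4 CPM (others 391.9 to 398.9). In WT SLAMF6+ replicate 5 they were Ifit3 at 0.494 CPM (others 0.0955 to 0.195), Ifi27l2a at 2926 CPM (others 2399 to 2546) and Gbp6 at 53.1 CPM (others 44.7 to 46.4). Usp18 stood at 15.7 CPM in WT SLAMF6+ replicate 1 (others 20.3 to 21.8). In WT CXCR6+, replicate 3 held Isg15 at 35.9 CPM (others 10.1 to 15.3) and Mx1 at 1.60 CPM (others 4.87 to 5.79). Oas2 stood at 1.31 CPM in replicate 2 (others 0 to 0.199), Bst2 at 293 CPM in replicate 4 (others 250.02 to 259.6) and Rtp4 at 2.23 CPM in replicate 5 (others 0 to 0.342).

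The difference between DKO and WT was not the same in CXCR6+ as in SLAMF6+ cells for 9 members by edgeR's interaction test. As log2 values in CXCR6+ minus those in SLAMF6+ they were Ifitm3 2.73, Ifitm2 2.57, Gbp2 1.33, Zbp1 1.06, Samhd1 1.04, Ifi27 1.04, Irgm1 0.81, Ly6e 0.80 and Ube2l6 -3.17, with 1 DKO library in each subset.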

How the results depend on the processing

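Of the called members, 14 of 28 in WT CXCR6+ against WT SLAMF6+, 22 of 27 and 16 of 26 in DKO against WT (CXCR6+, SLAMF6+) and 4 of 9 in the interaction were called under every alternative run that tested them. The only change of direction was Ube2l6 in WT, at log2 0.025 with GC and length offsets and 0.026 with those offsets and the replicate block; the offsets also ended the WT calls of Usp18, Ifitm3, Bst2, Ifi27, Parp14, Gbp3, Igtp and Irf9. The interaction count was 14 with DESeq2's Wald test, 5 with GC and length offsets and 5 with replicate block and those offsets. Over all tested genes 3259, 1745 and 956 were called under these settings. The median log2 fold change over the members in WT was -0.35 with at least 10 CPM in 5 libraries (32 members tested), -0.41 with GC and length offsets and -0.67 with the replicate block. Leaving out each WT library gave 24 to 26, 25 to 28, 21 to 29 and 7 to 11 calls in the 4 comparisons and a WT median of -0.65 to -0.54. Correlations of deviations were -0.046 to 0.101 between same-numbered libraries and -0.225 to 0.167 between the others. They do not settle whether a number marks a shared source. Replicate 2 held the most genes with counts in both WT subsets (26242 in WT CXCR6+, 26033 in WT SLAMF6+). With the number as a block 24 members were called in WT and 7 in the interaction, as were 6944 and 1557 of all genes. In the interaction the block ended the calls of Zbp1 and Irgm1, and with the offsets that of Ifitm3. For DKO against WT no paired analysis was possible because the DKO libraries share no number with WT. Without a filter on low counts 24, 26, 21 and 8 members were called, as were 6107, 5125, 5606 and 1534 of all genes. The GC and length offsets put the all-gene median in DKO CXCR6+ against WT CXCR6+ at -0.04, where it was -0.22 without them. The causes of these changes were not tested. Genes of the type I core with a few counts per library limit what can be called there.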

Other observations

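Some genes outside the member list also stood apart between the genotypes, and these were chosen after their values were seen. Ms4a4b, a membrane protein gene of T cells, stood at 1978 CPM in DKO CXCR6+, against 13.7 to 27.1 CPM in WT CXCR6+ (log2 6.66 ± 0.28), and at 2029.8 CPM in DKO SLAMF6+, against 15.4 to 23.8 CPM in WT SLAMF6+ (log2 6.81 ± 0.28). The HIN-200 gene Ifi203 stood at 141 CPM in DKO CXCR6+ and at 158 in DKO SLAMF6+, against 0 to 1.39 CPM in WT CXCR6+ and 0.291 to 1.26 CPM in WT SLAMF6+. Its relatives Ifi206, Ifi208, Ifi209 and Ifi213 ranged from 37.7 to 81.2 CPM in the DKO libraries and reached at most 0.679 CPM in any WT library. These genes resemble each other closely, so reads may be split among them. Rigi, the symbol in the table for the RNA sensor RIG-I, is named outside the member rule. It stood at 74.4 CPM in DKO CXCR6+, against 23.6, 18.1, 12.7, 18.4 and 24.4 CPM in WT CXCR6+ (log2 1.94 ± 0.24, adjusted p 1.08e-04), and at 67.2 CPM in DKO SLAMF6+, against 20.4, 23.0, 19.6, 21.5 and 20.3 CPM in WT SLAMF6+ (log2 1.68 ± 0.24, adjusted p 3.4e-04). Between the WT subsets it was not called (log2 -0.11 ± 0.16).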
